A study of Mus musculus with 9 samples.

Results

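The complement components, their regulators and the pentraxin Ptx3 were followed as 9 genes chosen by name, with earlier results of these data known. These genes were Ptx3, C1qa, C1qb, C1qc, C3, Cfb, Cfp, Serping1 and Cd55. They occupied 10 rows of a count table with 24061 gene symbols, and the rows of a symbol were summed. The libraries came from bone-marrow-derived macrophages (BMDMs), cells grown from the marrow of adult female C57BL/6J mice over 7 days in L-cell conditioned medium and then kept without serum for a day. The treatments Veh, LPS and T0+LPS were compared with 3 libraries each. Veh received DMSO only, LPS received DMSO for 3 hr and then 10 ng/mL of the TLR4 agonist lipopolysaccharide for 2 hr, and T0+LPS received 500 nM of the LXR agonist T0901317 (T0) for 3 hr before the same LPS stimulation. By the study's methods, LPS went into the medium that held T0, so T0 stayed present during the stimulation. T0 without LPS was not analysed here, so the effect of T0 was read only in stimulated cells. According to the study's methods, replicates were separately differentiated cultures. When the Veh cultures were harvested is not given in the sources used here, so LPS and a difference in culture time cannot be told apart in the comparisons with Veh.

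Complement is a cascade of plasma and tissue proteins that coats microbes and dying cells for uptake and recruits leukocytes. C1q, which is built from the products of C1qa, C1qb and C1qc, opens the classical pathway by binding antibody complexes and dying cells, and macrophages are a major source of it. All pathways meet at C3, whose cleavage is amplified by the alternative pathway, in which factor B (Cfb) supplies the protease and properdin (Cfp) stabilizes the enzyme complex. Serping1 encodes the C1 inhibitor, and Cd55 encodes decay-accelerating factor, a membrane protein that dissociates the C3-cleaving enzymes. Ptx3 is a secreted pattern-recognition molecule of the pentraxin family that binds C1q and microbial surfaces and is known to be produced by macrophages upon TLR stimulation.

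Each library held between 13299044 and 16467983 counted reads, with medians of 15086484 in Veh, 13661218 in LPS and 15320506 in T0+LPS. Levels are given as CPM, reads of a gene per 1000000 counted reads after scaling with TMM factors, which correct for library composition and lay between 0.931 and 1.14. Of 8 macrophage markers, 7 were in the table and all 7 exceeded 1 CPM on average, with a summed level between 24787 and 33587 CPM, whereas the summed markers of T, B and NK cells, mast cells and stromal cells each stayed below 1 CPM in every library. Of 9 neutrophil markers, 8 were in the table. They summed to between 1.45 and 2.08 CPM in Veh, 3.32 and 4.00 CPM in LPS and 2.37 and 3.58 CPM in T0+LPS. S100a9 and Retnlg stood at 0, as did Cd3e, Ms4a2, Mcpt8, Tpsb2, Pdgfrb, Pecam1 and Siglech among the markers of other cells. For all of these, whether rows that share exon bases left their reads uncounted was not checked. The low sums therefore do not show that such cells were absent. Dendritic cell markers summed to at most 0.529 CPM in Veh and at most 2.99 CPM after LPS, and their part in the results was not tested. The LXR targets Abca1 and Abcg1 rose with T0 (log2 fold changes 1.47 and 2.09), and Il1b rose with LPS (9.34), all past the threshold.

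Cfb could not be measured. Its 2 transcript rows span positions 34856374 to 34862514 of chromosome 17 (mm10, minus strand) and share all but 4 bases with each other, and no row that shared all its bases with another held a read. A single read was counted for Cfb over the 9 libraries, so no statement on factor B is possible. The other 8 genes had 1 row each, and none of their exon bases was shared with another row. Serping1, on chromosome 2 from 84765360 to 84775429, had at most 1 read in any library and 5 reads in all on 1820 exon bases. Up to 3 reads can be missed by chance where none is counted, which corresponds to between 0.160 and 0.238 CPM in these libraries, and Serping1 stayed below that level in every one, so no fold change is given. This left 7 genes with enough reads for a test.

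Among these 7, levels per exon length spanned several orders of magnitude (plot of level per length). In LPS, C1qb stood highest at 1930 ± 115 CPM per kilobase (SD, n = 3), followed by C1qc at 1334 ± 76.7, C1qa at 796 ± 60.3, Cfp at 197 ± 13.3, C3 at 141 ± 18.0 and Cd55 lowest at 0.931 ± 0.213 CPM per kilobase (SD, n = 3 each). Ptx3 lay between C3 and Cd55, at 8.24 to 12.6 CPM per kilobase. No neighbours in this order overlapped between their 3 LPS libraries. In Veh the order was the same down to C3, but Ptx3 lay below Cd55 and overlapped with Serping1. By level per kilobase, C1qb ranked 16 in Veh and 23 in LPS among 20028 symbols with at least 200 unshared exon bases. C1qa, the least abundant C1q chain, ranked between 62 and 80 in the 3 groups. Thus the C1q chains were among the most abundant transcripts of these macrophages, while the membrane regulator Cd55 had between 2 and 46 reads in a library.

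**Figure D1:**
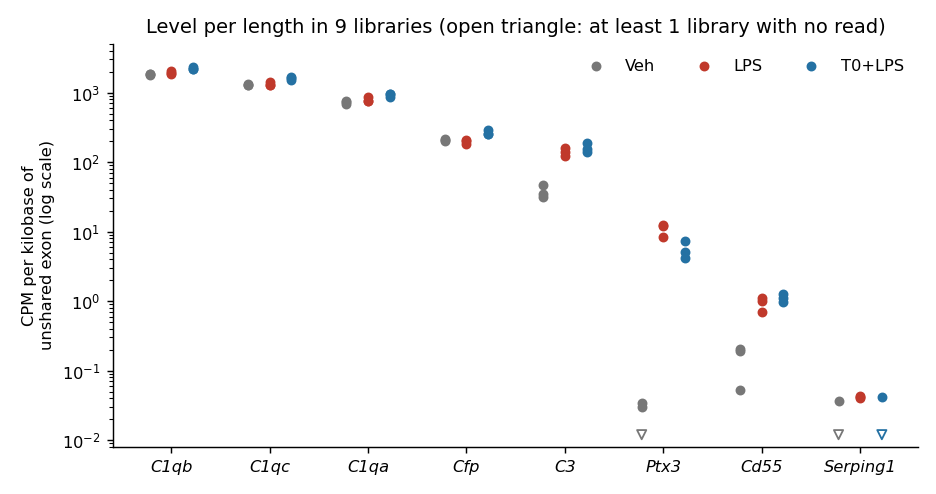
Level of each measured gene in CPM per kilobase of unshared exon (vertical axis, log scale) for 3 Veh, 3 LPS and 3 T0+LPS libraries, with 1 point per library and an open triangle where at least 1 library held no read. The C1q genes sit above all other genes in every group, with C1qa at 726 ± 29.4 CPM per kilobase in Veh (SD, n = 3), and Ptx3 moves from at most 0.0344 in Veh to between 4.24 and 12.6 after LPS.

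The question of the LPS comparison is which of these genes the macrophages turn on within 2 hr of TLR4 stimulation. Ptx3 changed most. The gene has 3 exons and spans positions 66219887 to 66225806 of chromosome 3 (mm10, plus strand). Veh libraries held 0, 1 and 1 reads of Ptx3, and LPS libraries held 305, 321 and 205. In CPM, the LPS libraries stood at 24.2, 23.4 and 15.8, all far above every Veh library. From summed reads the LPS level was 540-fold that of Veh, with an exact 95% interval from 149 to 4468 that covers counting error only and is wide because the Veh total was 2 reads. The adjusted p was 2.1e-12. This and every further adjusted p come from the quasi-likelihood F test of edgeR, corrected by Benjamini-Hochberg over all symbols, unless another tool is named.

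T0 lowered this induction. Ptx3 reads numbered 107, 140 and 203 in T0+LPS, or 8.15, 9.75 and 14.1 CPM. The highest T0+LPS library lay just below the lowest LPS library, so the groups did not overlap, although T0+LPS replicate 3 and LPS replicate 3 were close to each other. The mean fell from 21.1 ± 4.60 CPM to 10.7 ± 3.07 CPM (SD, n = 3), a change of -0.98 ± 0.18 on the log2 scale (estimate ± standard error, adjusted p = 0.0046), or a fold of 0.507. Over all 9348 symbols tested in T0+LPS against LPS, 1.83% were called lower and 9.62% had all T0+LPS libraries below all LPS libraries. Without 1 library the log2 fold change ran from -1.23 to -0.82 and the adjusted p stayed at or below 0.034. The call was lost in 1 setting, DESeq2 with the replicate number as a block, which was chosen after the data were seen (adjusted p = 0.36 from DESeq2, with the fold change still downward). Ptx3 in T0+LPS was still 274-fold that of Veh by summed reads (exact 95% interval 75.5 to 2272).

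The genes with profiles most like Ptx3 over the 9 libraries, by the smallest root mean square difference of mean-centred log2 CPM among 7299 genes, were Cish, Tnfsf15 and Il1a (differences of 0.19, 0.21 and 0.25). Cish, an inhibitor of cytokine signalling, stood at 0.338 ± 0.117 CPM in Veh, 28.6 ± 5.13 in LPS and 16.7 ± 4.82 in T0+LPS (SD, n = 3). Tnfsf15, a cytokine of the TNF superfamily, stood at 1.77 ± 0.216, 74.4 ± 5.46 and 46.6 ± 7.10 CPM in the same order (SD, n = 3).

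**Figure D2:**
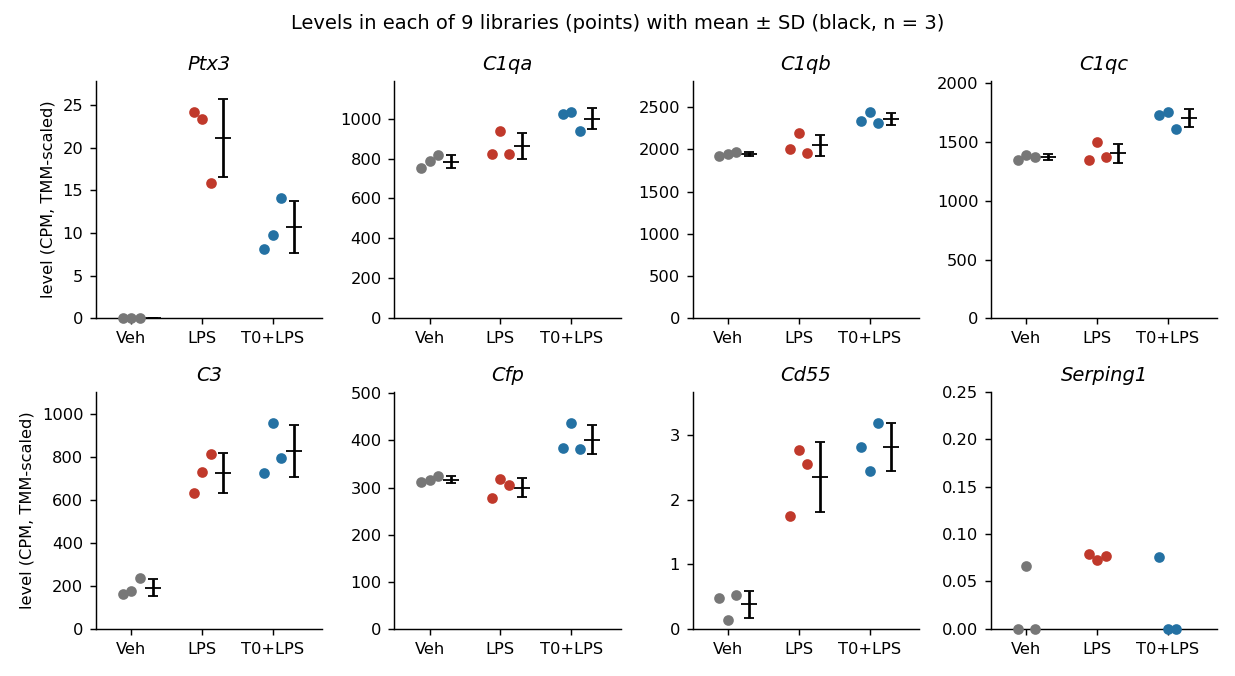
Level in CPM (vertical axes, each starting at 0) of 8 genes in Veh, LPS and T0+LPS, with 1 point per library in replicate order and the mean ± SD of 3 libraries in black, omitted for Serping1 because no library held more than 1 read. Ptx3 falls from LPS to T0+LPS, whereas the C1q genes and Cfp sit higher in all 3 T0+LPS libraries than in all 3 LPS libraries.

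C1qb and C1qc rose with T0, and C1qa narrowly missed the threshold. C1qb, C1qc and C1qa lie in this order within 18.7 kb of chromosome 4, from 136880145 to 136898844 on the minus strand, each with 3 exons. C1qb stood at 1918, 1947 and 1975 CPM in Veh, 2000, 2189 and 1959 CPM in LPS and 2333, 2444 and 2316 CPM in T0+LPS. All T0+LPS libraries lay above all LPS libraries, and the means of 2050 ± 122 and 2364 ± 69.5 CPM (SD, n = 3) differed by 0.21 ± 0.05 on the log2 scale (adjusted p = 0.027). C1qc stood at 1345, 1395 and 1374 CPM in Veh, 1346, 1498 and 1374 CPM in LPS and 1735, 1757 and 1614 CPM in T0+LPS. With T0 it rose by 0.28 ± 0.05 on the log2 scale, or 21.1% (adjusted p = 0.0053).

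C1qa stood at 753, 786 and 817 CPM in Veh, 824, 936 and 823 CPM in LPS and 1024, 1034 and 938 CPM in T0+LPS. Its T0+LPS libraries also lay above its LPS libraries, but the gap between LPS replicate 2 and T0+LPS replicate 3 was small. The log2 fold change of 0.21 (standard error 0.06, 95% interval 0.09 to 0.33) narrowly missed the threshold (adjusted p = 0.053). It was called in 6 of 10 other settings, among them DESeq2 (adjusted p = 0.014), limma-voom (0.048) and a fit to all 9 libraries (0.026), and was not called in 4, namely DESeq2 size factors in edgeR (0.053), library totals (0.057), at least 10 counts in 3 libraries (0.052) and each RefSeq row (0.053). Over all symbols tested, 1.35% were called higher and 9.51% did not overlap in this direction. The C1q calls depended on single libraries. Without LPS replicate 1, the adjusted p was 0.19 for C1qb and 0.058 for C1qc, and C1qb was also not called without T0+LPS replicate 1 (0.052), 2 (0.14) or 3 (0.055). C1qa was called without LPS replicate 2 (0.010) or T0+LPS replicate 3 (0.038) and not in the other 4 fits, where its adjusted p lay between 0.089 and 0.30.

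The 3 C1q genes together took between 0.389% and 0.432% of the counted reads in LPS and between 0.453% and 0.491% in T0+LPS, against 0.456% to 0.477% in Veh. Their proportions within a library, which no scaling affects, moved little. Reads of C1qb per read of C1qa numbered 2.55, 2.48 and 2.42 in Veh, 2.43, 2.34 and 2.38 in LPS and 2.28, 2.36 and 2.47 in T0+LPS, and T0+LPS overlapped with both other groups. C1qc per C1qa was 1.79, 1.77 and 1.68 in Veh, 1.63, 1.60 and 1.67 in LPS and 1.69, 1.70 and 1.72 in T0+LPS. LPS lay below both other groups without overlap, each with an exact permutation p = 0.1. This is the smallest 2-sided value that 3 against 3 can give. T0+LPS overlapped with Veh. The profiles nearest to C1qa over the 9 libraries were those of C1qb, Tor3a and C1qc, with root mean square differences of 0.046, 0.046 and 0.048 on the log2 scale. The summed macrophage markers, most of which is Lyz2, also stood higher in T0+LPS (32070 to 33587 CPM) than in LPS (29426 to 31001 CPM), with Lyz2 at 21427 ± 664 CPM in LPS and 23738 ± 762 CPM in T0+LPS (SD, n = 3). Of the other 6 markers, the mean was higher in T0+LPS for Csf1r (4369 and 4472 CPM), Cd14 (3128 and 3352 CPM), Fcgr1 (70.8 and 88.9 CPM) and Mertk (34.8 and 72.8 CPM), and lower for Cd68 (540 and 532 CPM) and Mrc1 (502 and 492 CPM). The part of these markers in the C1q result was not tested. In these bulk libraries, fewer cells that make a transcript and less of it per cell cannot be told apart.

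Between LPS and Veh, the direction of the C1q genes depended on the scaling. With TMM factors, C1qa was called higher in LPS (log2 fold change 0.14, adjusted p = 0.030), and C1qb and C1qc were not called (0.08 and 0.04, adjusted p of 0.14 and 0.46). With library totals alone, the log2 fold changes of C1qa, C1qb and C1qc were -0.15, -0.21 and -0.24, each called lower (adjusted p between 0.00012 and 0.017). Over all tested symbols the median then stood at -0.28 in place of -0.0019 with TMM, and relative to this median the 3 genes stood at 0.14, 0.08 and 0.04. These values repeat those with TMM, since the scalings differ mainly by a shift of all symbols, and cannot decide between them. The call for C1qa was also lost without LPS replicate 2 (adjusted p = 0.26), Veh replicate 1 (0.13) or Veh replicate 2 (0.073). The rise of C1qb and C1qc with T0 in stimulated cells was called with both scalings (0.20 and 0.27 with library totals, adjusted p of 0.027 and 0.0056).

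Properdin gave the clearest increase with T0. Cfp has 9 exons between positions 20925535 and 20931524 of chromosome X (minus strand). It stood at 311, 315 and 324 CPM in Veh, 278, 318 and 305 CPM in LPS and 385, 438 and 383 CPM in T0+LPS. Every T0+LPS library lay above every LPS and every Veh library. The mean rose from 300 ± 20.3 CPM in LPS to 402 ± 31.2 CPM in T0+LPS (SD, n = 3), that is by 0.42 ± 0.06 on the log2 scale and 33.9% (adjusted p = 0.0010). Without 1 library the value stayed between 0.36 and 0.46 with an adjusted p of at most 0.0091, and all 10 other settings called it.

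Against Veh, Cfp in LPS was not called with TMM factors (log2 fold change -0.08, 95% interval -0.18 to 0.03) but was called lower with library totals (-0.36, adjusted p = 1.1e-05) and without LPS replicate 2 (-0.13, adjusted p = 0.032). Relative to C1qb in the same library, Cfp reads numbered 0.162, 0.162 and 0.164 in Veh, 0.139, 0.145 and 0.156 in LPS and 0.165, 0.179 and 0.165 in T0+LPS. Thus, free of scaling, LPS libraries held less Cfp per C1qb than the libraries of either other group. Each of these differences had the smallest exact permutation p of 0.1.

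Of 9 genes, 6 had a promoter window in the RefSeq table for GRCm38.p6, the same assembly as mm10, and C1qa, Cfb and Serping1 had none. The 250 bases upstream of the start in that table are shown for the 4 genes called with T0, since Ptx3 fell while C1qb, C1qc and Cfp rose. They are written 5′ to 3′ on the gene's strand in lower case, and capitals mark a match to a searched element. The start in the table lay 31 bases upstream of the counted transcript's start for Cfp, 23 bases for C1qb and 4 bases for Cd55, and at it for Ptx3, C1qc and C3, and distances are counted from the start in the table.
Ptx3, chr3:66219637-66219886, plus strand: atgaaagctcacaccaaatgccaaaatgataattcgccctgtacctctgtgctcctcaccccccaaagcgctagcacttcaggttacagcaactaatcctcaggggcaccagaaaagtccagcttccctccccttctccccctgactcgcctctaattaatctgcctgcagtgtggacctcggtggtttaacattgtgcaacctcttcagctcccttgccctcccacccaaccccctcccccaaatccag
C1qb, chr4:136886201-136886450, minus strand: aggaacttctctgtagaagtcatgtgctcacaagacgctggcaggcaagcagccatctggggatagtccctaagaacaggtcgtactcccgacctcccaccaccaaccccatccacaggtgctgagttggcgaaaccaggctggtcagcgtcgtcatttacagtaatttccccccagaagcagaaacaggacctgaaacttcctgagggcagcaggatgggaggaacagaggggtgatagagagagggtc
C1qc, chr4:136892915-136893164, minus strand: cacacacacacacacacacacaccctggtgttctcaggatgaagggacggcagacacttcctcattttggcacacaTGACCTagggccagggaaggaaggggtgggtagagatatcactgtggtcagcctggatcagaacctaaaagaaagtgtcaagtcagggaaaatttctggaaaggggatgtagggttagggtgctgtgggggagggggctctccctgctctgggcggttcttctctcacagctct
Cfp, chrX:20931556-20931805, minus strand: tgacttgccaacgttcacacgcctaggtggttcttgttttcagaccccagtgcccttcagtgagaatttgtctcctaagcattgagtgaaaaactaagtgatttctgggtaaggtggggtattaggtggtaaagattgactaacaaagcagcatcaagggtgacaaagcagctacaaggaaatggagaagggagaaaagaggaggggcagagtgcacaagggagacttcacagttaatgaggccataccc
On both strands of these windows, 6 elements were searched by their letters. The NF-kB element (GGG, any 2 bases, TT, any base, CC), found in 4.11% of 32851 upstream windows, matched only Cd55 among the 6 genes, 61 bases before the start. The nuclear receptor element AGGTCA, found in 14.0% of windows, matched C1qc 174 bases and C3 243 bases before the start, once each. Its direct repeat with a spacer of 4 bases, the spacing typical of LXR sites, contains the single element and occurred in 0.0152% of windows. This repeat, the interferon response element (GAAA, any 2 bases, GAAA, 2.98% of windows), the STAT element (TTC, any 3 bases, GAA, 7.02%) and the AP-1 element (TGANTCA, 6.75%) matched none of the 6. These matches describe letters only, and enhancers outside the windows were not analysed here.

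C3 had a large LPS response at a high level. Its 41 exons lie between positions 57203973 and 57228136 of chromosome 17 (minus strand). C3 stood at 162, 177 and 237 CPM in Veh and rose to 630, 728 and 814 CPM in LPS. The lowest LPS library exceeded the highest Veh library by a wide margin, and the rise was 1.92 ± 0.11 on the log2 scale (adjusted p = 2e-10), a fold of 3.78. With library totals it was 1.63. In T0+LPS the libraries stood at 726, 958 and 795 CPM, which overlapped with LPS. With T0 the log2 value was 0.19 (95% interval -0.0065 to 0.39, adjusted p = 0.39), so an increase of up to 0.39 cannot be told from no change. C3 was called only when every symbol with at least 1 count was tested (adjusted p = 0.0033).
The profiles most like that of C3 were those of Ikbke, a kinase of the innate immune response, Lacc1 and Zfp800, with root mean square differences of 0.17, 0.18 and 0.19. Ikbke stood at 151 ± 7.52 CPM in Veh, 590 ± 20.0 CPM in LPS and 638 ± 18.9 CPM in T0+LPS (SD, n = 3).

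Cd55 also rose with LPS, from a very low level. The gene occupies positions 130439030 to 130462740 of chromosome 1 (minus strand). Veh libraries held 9, 2 and 9 reads, LPS libraries 22, 38 and 33, and T0+LPS libraries 37, 35 and 46. LPS and Veh did not overlap, and the difference was 2.57 ± 0.35 on the log2 scale (adjusted p = 8.1e-06). T0+LPS overlapped with LPS, with a log2 value of 0.25 and a 95% interval from -0.23 to 0.73, so a change of up to that size was not detectable at this depth. Mouse Cd55 has a close paralog, and how reads common to both were assigned is not given in the sources used here.

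**Figure D3:**
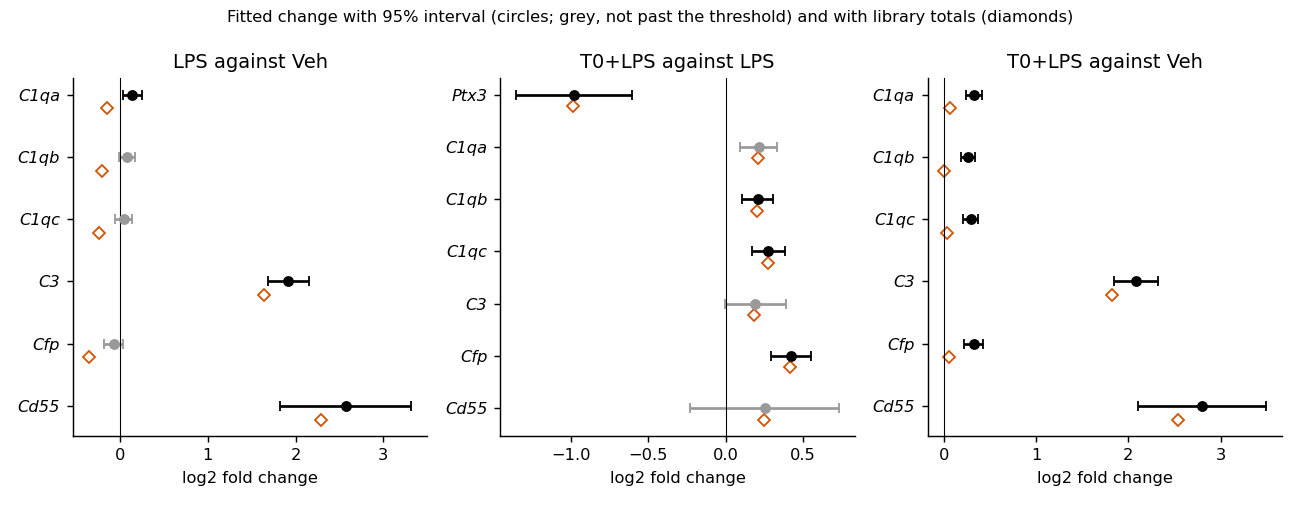
Log2 fold change (horizontal axes) of the tested genes in the 3 comparisons, with circles and 95% intervals for TMM scaling (black, adjusted p under 0.05, and grey otherwise) and diamonds for library totals. Ptx3 is drawn only for T0+LPS against LPS because its Veh libraries held at most 1 read. The diamonds lie close to the circles in T0+LPS against LPS and about 0.28 lower in the comparisons with Veh, which in LPS against Veh moves the C1q genes below 0 and Cfp further below 0, and in T0+LPS against Veh brings all 4 close to 0.

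Of the 7 genes tested, 4 were called higher in LPS than in Veh (Ptx3, C1qa, C3 and Cd55) and none lower, where 32.9% of all 9559 symbols tested were called higher and 31.2% lower. All LPS libraries lay above all Veh libraries for the same 4 genes, against 33.7% of symbols in this direction and 33.7% in the other. Ptx3 and Cd55 passed the filter through the stimulated libraries, so their share is a description only. In T0+LPS against LPS, 3 were called higher (C1qb, C1qc and Cfp), against 1.35% of all 9348 symbols, and 1 lower (Ptx3), against 1.83%, and C1qa, C3 and Cd55 were not called. Without LPS replicate 1, Cfp was the only one of them still called higher. All 7 were called higher in T0+LPS than in Veh, against 32.4% of all symbols called higher and 32.9% lower. T0+LPS libraries lay above all Veh libraries for all 7, against 35.6% of symbols in this direction and 33.8% in the other. Ptx3 and Cd55 passed the filter through the stimulated libraries here too, so this share is a description only. However, with library totals only Ptx3, C3 and Cd55 were still called higher than in Veh, in LPS as in T0+LPS. In LPS against Veh, C1qa, C1qb, C1qc and Cfp were then called lower, where 1694 symbols were called higher and 5411 lower. In T0+LPS against Veh these 4 genes had log2 fold changes of 0.06, -0.0043, 0.03 and 0.06 in that scaling. All these comparisons share libraries in pairs and are not independent. The genes were chosen with earlier results of these data known, so their shares are a description only.

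**Figure D4:**
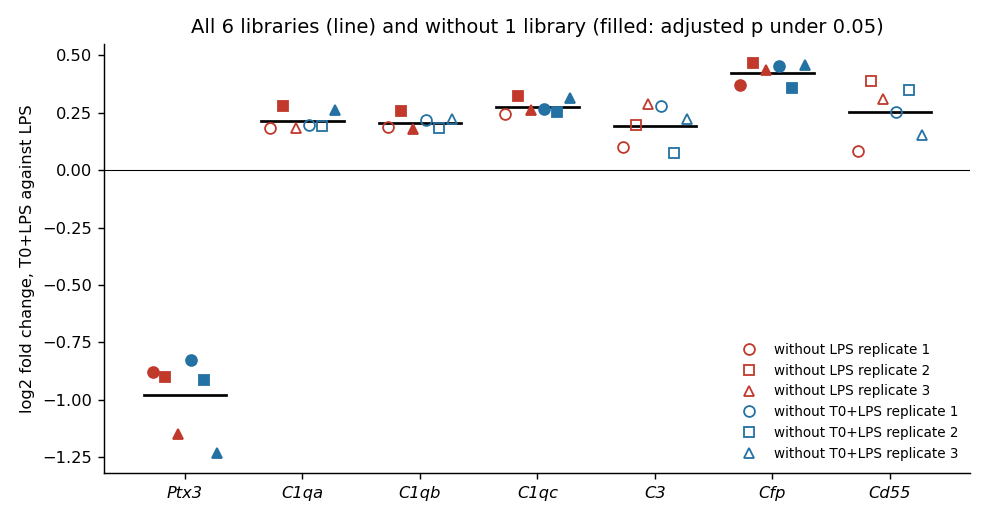
T0+LPS relative to LPS as a log2 fold change (vertical axis) for 7 genes, with a black line for all 6 libraries and symbols for fits without 1 library, filled where the adjusted p was under 0.05. Ptx3 and Cfp are filled in all 6 fits, C1qc in 5 and C1qb in 2, and no fit changes sign.

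The wider pathway was read from a list of 62 complement and pentraxin genes, of which 61 were in the table and 19 were tested in T0+LPS against LPS. Many were silent or not measurable here. In all, 9 had fewer than 200 unshared exon bases, among them Itgam, which encodes a chain of complement receptor 3, and Cfd, which encodes factor D. Of the other 52, 13 had no read at all, including Mbl1, Mbl2, C6, C7 and Cfi. These examples were chosen after their values were seen. Of the list, 9 genes were called higher and 1 lower in LPS than in Veh among 20 tested with TMM factors, and 6 higher and 9 lower with library totals. With TMM factors 32.9% of all symbols were called higher and 31.2% lower. With library totals 1694 symbols were called higher and 5411 lower, so 76.2% of all calls in that scaling were lower. With either scaling, 4 listed genes were higher and 2 lower in T0+LPS than in LPS, against 1.35% and 1.83% of all symbols with TMM factors. With TMM factors these genes were C1qb, C1qc, Cfp and C3ar1, and Ptx3 and Itgb2. The list was chosen with earlier results of these data known, so its shares are a description only. The median log2 fold change of the list with T0 was -0.01, against 0.0028 over all symbols tested.

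Among initiation genes outside C1q, C1ra, which encodes the protease C1r, rose with LPS from 3.33 ± 0.0928 to 5.99 ± 0.258 CPM (SD, n = 3, adjusted p = 8.5e-05) and stood at 4.66 ± 0.669 CPM with T0 (adjusted p = 0.31 against LPS). Colec12, a scavenger receptor with a collectin domain, was called lower only in T0+LPS against Veh (log2 fold change -0.14, adjusted p = 0.036). This call was lost in 4 of 6 fits without 1 library, namely without Veh replicate 1 (adjusted p = 0.23) or T0+LPS replicate 1 (0.11), 2 (0.074) or 3 (0.066), and in 5 of 10 other settings, DESeq2 (0.20 from DESeq2) among them. Among regulators, Cr1l, which encodes the mouse membrane regulator Crry, rose from 75.1 ± 3.11 CPM in Veh to 103 ± 1.70 CPM in LPS (SD, n = 3, adjusted p = 4.2e-07), with 96.3 ± 1.61 CPM in T0+LPS (adjusted p = 0.40 against LPS). With library totals the log2 rise with LPS was 0.56 in place of 0.85 for C1ra (adjusted p = 0.0024). For Cr1l it was 0.18 in place of 0.46 (adjusted p = 0.0035).

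Of 5 receptor genes tested, 1 was called higher and 1 lower with T0, against 1.35% and 1.83% of all symbols. C3ar1, the receptor for the C3a fragment, stood at 2228 ± 90.0 CPM in LPS and 2535 ± 85.6 CPM in T0+LPS (SD, n = 3), and was called higher with T0 (log2 fold change 0.19, adjusted p = 0.035). Itgb2, the beta chain shared by complement receptors 3 and 4, was called lower with T0 (log2 fold change -0.18, adjusted p = 0.043). Both calls were lost without LPS replicate 1 (adjusted p of 0.28 for C3ar1 and 0.30 for Itgb2), LPS replicate 2 (0.075 and 0.099), T0+LPS replicate 1 (0.13 and 0.12) or T0+LPS replicate 2 (0.14 and 0.22), that of Itgb2 also without T0+LPS replicate 3 (0.066) and with the replicate block in edgeR (0.052), and both with the replicate block in DESeq2. In LPS against Veh, Itgb2 was called higher with TMM factors (log2 fold change 0.15, adjusted p = 0.0042) but lower with library totals (-0.13, adjusted p = 0.0069). Itgax, the alpha chain of complement receptor 4, rose with LPS (log2 fold change 0.42, adjusted p = 2.5e-06). With library totals this rise was 0.14 (adjusted p = 0.02). With T0, Itgax had a log2 fold change of -0.23 that missed the threshold (adjusted p = 0.077). C5ar1, the C5a receptor, was called higher in LPS (log2 fold change 0.50, adjusted p = 0.028) on 119 unshared bases, with groups that overlapped. It was not called in 4 of 6 fits without 1 library (Veh replicate 1 or 3, LPS replicate 2 or 3) nor in 3 of 10 other settings, with an adjusted p of up to 0.31. Cd93, once described as a C1q receptor, was the only listed gene called lower in LPS with TMM factors, from 602 ± 11.7 to 479 ± 28.5 CPM (SD, n = 3, adjusted p = 1.0e-05), and stood at 490 ± 1.61 CPM in T0+LPS (adjusted p = 0.84 against LPS).

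**Figure D5:**
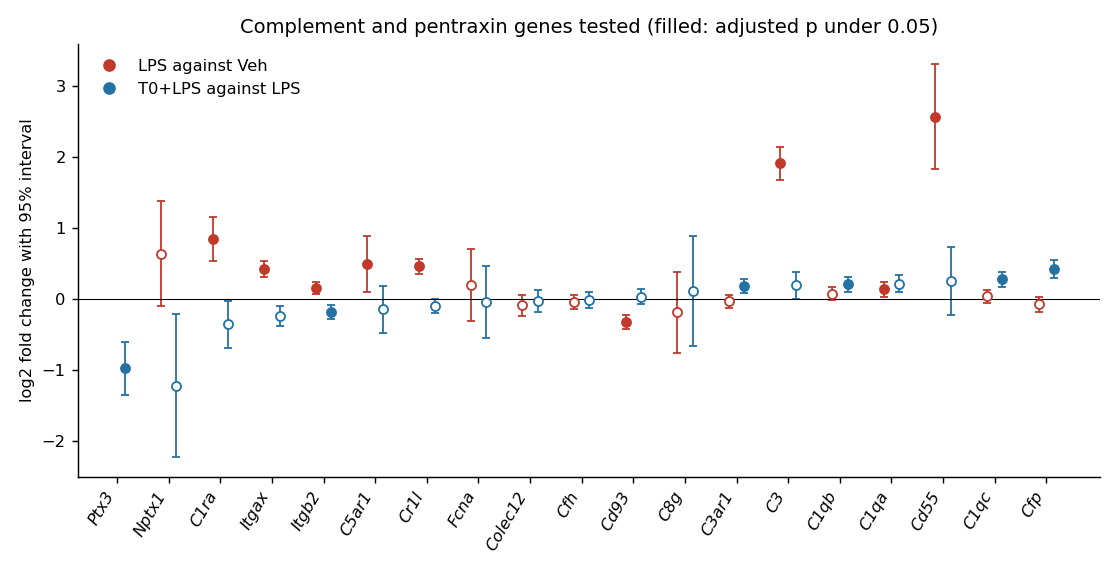
Log2 fold change with 95% interval (vertical axis) of the 19 listed genes tested in T0+LPS against LPS, ordered by that value after Ptx3, with LPS against Veh in red and T0+LPS against LPS in blue and filled symbols where the adjusted p was under 0.05. Filled blue symbols are Ptx3 and Itgb2 below 0 and C3ar1, C1qb, C1qc and Cfp above 0, and the LPS value of Ptx3 is left out because its Veh libraries held at most 1 read.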

How the data were processed

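RNA-seq of 9 BMDM libraries was compared in 3 groups mapped from sample titles. The deposited values are raw counts, that is whole reads per RefSeq transcript row, which the authors obtained with featureCounts after alignment to mm10 by HISAT2 of poly(A) libraries cleaned by cutadapt. Strand use in counting is not given in the sources used here. A further deposited table holds the authors' DESeq2 results and RPKM ratios, and another holds gene names only, and neither was used. Rows of 1 symbol were summed.

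edgeR 4.0.16 in R 4.3.3 (quasi-likelihood, TMM, filterByExpr, Benjamini-Hochberg over all symbols, threshold 0.05) was fitted to 6 libraries per comparison. A run on simulated data used changes larger than those of the C1q genes and does not bear on them. Intervals of log2 fold changes used the t distribution with edgeR's degrees of freedom. Depth was 13299044 to 16467983 counts per library, and count intervals and floors (3 counts) cover counting error only. No library pair of a group agreed within sampling noise (chi-square per degree of freedom at least 2.63). Alternatives were DESeq2 1.42.0, limma-voom (limma 3.58.1), other scalings and filters, unsummed rows, a joint fit to 9 libraries, a replicate block, and each library left out in turn. Members and lists were chosen with earlier results of these data known. Named genes were the 9 members, listed genes called in a comparison with at least 5 CPM in a group, the 3 profiles nearest to Ptx3, C3 and C1qa among genes with at least 5 CPM (0.5 CPM added before logs), and treatment checks.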

Additional observations from a re-analysis of the deposited data

How the results depend on the processing

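Of 335 values of 21 gene results under other settings, 305 kept their direction and side of the threshold, 13 lost and 12 gained a call, and 5 reversed. Library totals reversed C1qa (-0.15), C1qb (-0.21) and C1qc (-0.24) in LPS against Veh and C1qb (-0.0043) in T0+LPS against Veh, and in LPS against Veh C1qc ran from -0.020 without LPS replicate 2 to 0.068 without LPS replicate 1. With library totals, LPS against Veh had 4 members and 9 listed genes called lower (0 and 1 with TMM) and 1694 symbols higher and 5411 lower (3148 and 2981 with TMM, so 76.2% of calls were lower in place of 48.6%). T0+LPS against Veh then had 3 members and 3 listed genes higher (7 and 11 with TMM), 6 listed genes lower, and 1659 symbols higher and 5523 lower (3121 and 3172 with TMM). Without a filter, T0+LPS against LPS gave 5 members higher, and 225 symbols higher and 285 lower in place of 126 and 171, and LPS against Veh gave 2 listed genes lower, as did the fit to all 9 libraries. In T0+LPS against Veh, 1 listed gene in place of 2 was lower with DESeq2, DESeq2 size factors, all 9 libraries and either replicate block, each losing Colec12. The cause was not tested.

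Without 1 library, T0+LPS against LPS gave 1 to 4 members higher, 1 to 4 listed genes higher and 1 to 3 lower, and 59 to 167 symbols higher and 82 to 191 lower. Each of these counts was lowest without LPS replicate 1, but for listed genes called lower other fits shared this minimum. LPS against Veh gave 0 to 1 members lower and 1 to 3 listed genes lower, and T0+LPS against Veh 1 to 3 listed genes lower. Deviations of same-numbered libraries correlated between -0.05 and 0.05. Of 3 T0+LPS libraries, 0 correlated best with the LPS library of their own number. These correlations over all symbols, with 3 libraries per group, showed no pairing by number but cannot exclude it. With the replicate block in edgeR, T0+LPS against LPS had 155 symbols higher and 230 lower, and C1qa gained a call (adjusted p = 0.014). With the replicate block in DESeq2, chosen after seeing the data, it had 69 higher and 79 lower, 0 members and 0 listed genes lower, and Ptx3 was not called (adjusted p = 0.36 from DESeq2). T0+LPS against Veh then had 1979 symbols lower, and the LPS against Veh call of C1qa was lost (adjusted p = 0.065 from DESeq2). Depth limits Serping1, Cd55 and Ptx3 in Veh.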
